A study of Homo sapiens with 4 samples.

Results

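The genes described here encode SMARCA4 (BRG1) and SMARCA2 (BRM), the alternative motor subunits of SWI/SNF, a family of complexes that remodel chromatin, and 3 further sets of paralogous core subunits: ARID1A and ARID1B, SMARCC1 and SMARCC2, and SMARCD1, SMARCD2 and SMARCD3. They were taken by symbol from the count tables, and all 9 were found among 61228 features and passed the filter on low counts, which 19159 features passed. The RNA came from H1792, an established human lung cancer line whose genotype is labelled WT. Cells were kept for 96 h in DMSO, the vehicle (2 libraries), or in ACBI1 (2 libraries) at a dose labelled 1 mM, a unit that the counts cannot check. ACBI1 is a PROTAC, a bivalent molecule that recruits the VHL ubiquitin ligase to SMARCA2, SMARCA4 and PBRM1 so that these proteins are degraded. All libraries come from 1 cell line, and proteins were not analysed here. In bulk RNA, fewer cells that express a gene and less of its RNA per cell cannot be told apart.

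SWI/SNF complexes use the energy of ATP to move or evict nucleosomes and thereby open promoters and enhancers. Each complex holds a single ATPase, either SMARCA4 or SMARCA2. The ATPase is built onto a core that contains SMARCC1, SMARCC2 or both as scaffold subunits and 1 of the 3 SMARCD proteins. ARID1A and ARID1B are alternative subunits that define the canonical BAF form. Since partners in the ATPase, ARID1 and SMARCD families are alternatives for the same place, their relative abundance bears on which versions of the complex a cell can build. In some families, loss of a partner is known to make tumour cells depend on the other.

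Counts in genes summed to between 64281850 and 86010100 per library, and 84.6% to 86.1% of the reads listed were in genes. Nothing in the labels says that replicates came from separate cultures, so p-values measure only the spread between these libraries, which may be technical. Libraries of a group differed by more than sampling noise (a chi-square over genes gave 144 per degree of freedom between the DMSO libraries and 94.9 between the ACBI1 libraries). Of 6 epithelial markers, 5 had a mean of at least 1 CPM (counts scaled to library size by TMM), all but CDH1, and their summed level was 982 to 1035 CPM with DMSO and 202 to 323 CPM with ACBI1. KRT7 made up most of the DMSO sum (678 and 680 CPM, against 179 and 60.3 CPM). KRT8 (155 and 192 against 69.1 and 60.9 CPM), KRT18 (140 and 155 against 58.7 and 75.1) and KRT19 (3.44 and 5.00 against 0.961 and 0.503) were also lower with ACBI1. EPCAM alone had a higher mean with ACBI1, but its groups overlapped (5.38 and 2.78 CPM with DMSO, 15.6 and 4.84 CPM with ACBI1). None of 4 lung lineage markers reached 1 CPM, and NKX2-1 had no count in any library, so that the markers of the labelled tissue were absent or close to 0. All 5 fibroblast markers had a mean of at least 1 CPM over the 4 libraries, with sums of 989 to 1942 CPM with DMSO and 80.0 to 262 CPM with ACBI1. COL1A1 (324 and 693 CPM) and COL1A2 (646 and 1189 CPM) made up most of the DMSO sum. DCN had only 0.0447 and 0.107 CPM with ACBI1. Of 3 endothelial markers PECAM1 had a mean of at least 1 CPM over the 4 libraries, with sums for the list of 12.6 to 48.5 CPM against 0.0112 to 0.0458 CPM. None of 5 immune markers did (0.307 to 0.820 CPM against 0.235 to 0.305 CPM, with CD3E at 0). The part of these marker lists in the results below was not tested.

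Taken as a list, 1 of the 9 genes, SMARCD3, was called higher with ACBI1 and none was called lower by edgeR's quasi-likelihood test. Over all genes tested, 17.4% were called, 6.75% higher and 10.6% lower, so the members' share of calls (11.1%) was close to the background. At an unadjusted p under 0.05 there were 3 members, SMARCA4, ARID1A and SMARCD3, against 33.9% of all genes. The log2 change was positive for 8 of the 9, with SMARCA2 as the exception, against 50.4% of all genes, and the median was 0.38 against 0.01 over all genes. In 6 of the 9 genes the ACBI1 libraries did not overlap the DMSO libraries, which held for 63.2% of all genes. This was in the higher direction for 5 members (31.1% of all genes) and in the lower direction for SMARCA2 (32.2% of all genes).

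**Figure D1:**
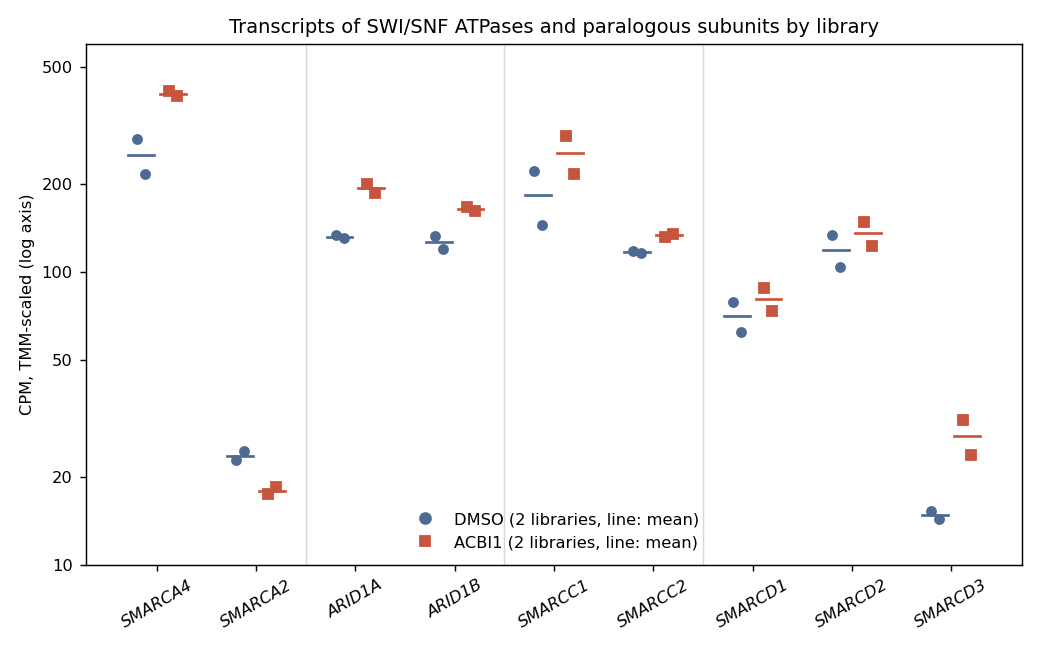
Level of each of the 9 transcripts in every library, in TMM-scaled CPM on a log axis, with circles for DMSO, squares for ACBI1 and lines for the mean of 2 libraries. SMARCA4 sits at 216 to 284 CPM with DMSO and 398 to 414 CPM with ACBI1, while SMARCA2 lies at 22.8 to 24.4 and 17.5 to 18.4 CPM, the reverse order of the groups.

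Partners of a family are similar enough in sequence that reads could be given to the wrong gene. For each pair, the longest run of identical bases was therefore looked up in whole GENCODE 29 transcripts. Stretches are shown only from the coding part of both genes. In the ATPases this run was 26 bases, shown in capitals with 30 bases on either side in lower case, in which the partners differ at many places.
SMARCA4: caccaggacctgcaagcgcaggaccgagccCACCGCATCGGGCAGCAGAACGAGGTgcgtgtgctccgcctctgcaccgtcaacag
SMARCA2: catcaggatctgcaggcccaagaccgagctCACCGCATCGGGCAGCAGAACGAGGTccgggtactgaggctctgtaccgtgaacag
The longest run shared by SMARCC1 and SMARCC2 was 23 bases, and in the SMARCD trio it was 18 to 20 bases, shown here for SMARCD2 and SMARCD3, whose ratio differed between the groups.
SMARCD2: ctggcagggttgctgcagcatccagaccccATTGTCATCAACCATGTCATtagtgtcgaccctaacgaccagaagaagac
SMARCD3: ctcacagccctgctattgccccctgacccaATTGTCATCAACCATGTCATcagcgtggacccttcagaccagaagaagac
ARID1A and ARID1B shared at most 35 bases. With 30 bases added on either side, this run was not found inside the coding part of both genes, so it is not shown. Whether the run alone is coding was not checked. No window of 50 bases in any transcript of a member occurred in a transcript of its partner. Windows shared with other genes made up at most 0.953% of a member's 50-base windows (SMARCA4), so the partners' counts can be told apart by reads of that length, although the read length is not given in the sources used here.

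SMARCA4 (ENSG00000127616, chr19:10960825-11079426, plus strand, GRCh38) encodes the ATPase that also drives the PBAF form of the complex. Its DMSO libraries stood at 284 and 216 CPM, against 414 and 398 CPM with ACBI1. Both ACBI1 libraries were above both DMSO libraries, and the DMSO libraries differed from each other 1.31-fold. The edgeR log2 change was 0.70 (SE 0.20, 95% interval 0.22 to 1.18), which did not pass the threshold (adjusted p 0.0583). The call turned on the processing: edgeR with upper-quartile scaling, with library size only, without the filter or with a minimum of 5 CPM, DESeq2 and limma-voom each gave a call for SMARCA4 in the higher direction (adjusted p 0.00834 to 0.0491). In edgeR with DESeq2 size factors SMARCA4 was not called (adjusted p 0.0567). Dropping 1 library at a time in edgeR gave log2 changes of 0.91 and 0.51 for DMSO replicates 1 and 2. For ACBI1 replicates 1 and 2 the values were 0.68 and 0.72.

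SMARCA2 (ENSG00000080503, chr9:1980290-2193624, plus strand) encodes the paralogous ATPase. It had 22.8 and 24.4 CPM with DMSO and 17.5 and 18.4 CPM with ACBI1, so that both ACBI1 libraries were below both DMSO libraries. In edgeR its log2 change was -0.40 (SE 0.17, 95% interval -0.81 to 0.02) and was not called (adjusted p 0.163). The antisense transcript SMARCA2-AS1 had 0 counts in each library. Exons of other genes cover 2.26% of the bases in SMARCA2 exons and 0.627% of those in SMARCA4. Of the longest coding transcripts they cover 4.50% in SMARCA2 and 1.71% in SMARCA4.

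Within the ATPase pair, the relation between the partners can be read without any library scaling. SMARCA4 held 92.6% and 89.8% of the pair's counts in the DMSO libraries and 96.0% and 95.6% in the ACBI1 libraries. SMARCA2 thus held 8.79% ± 1.93 (SD, n = 2) with DMSO and 4.23% ± 0.257 (SD, n = 2) with ACBI1. The groups did not overlap and lay 3.02 percentage points apart, while the counting error of a library's share was at most 0.453 points to either side (exact Clopper-Pearson, 95%). Put as a ratio, there were 12.5 and 8.85 SMARCA4 reads for each SMARCA2 read with DMSO, and 23.7 and 21.7 with ACBI1. The mean log2 ratio went from 3.39 ± 0.35 to 4.50 ± 0.09 (SD, n = 2), a 2.16-fold shift toward SMARCA4. With 2 against 2 libraries the exact permutation p was 0.333, which is the smallest this design allows (two-sided, 0.429 after Benjamini-Hochberg adjustment over 9 shares), so no share could pass a threshold of 0.05. Summed over the pair, the level was 306 and 240 CPM with DMSO and 431 and 416 CPM with ACBI1, a 1.55-fold difference of means.

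**Figure D2:**
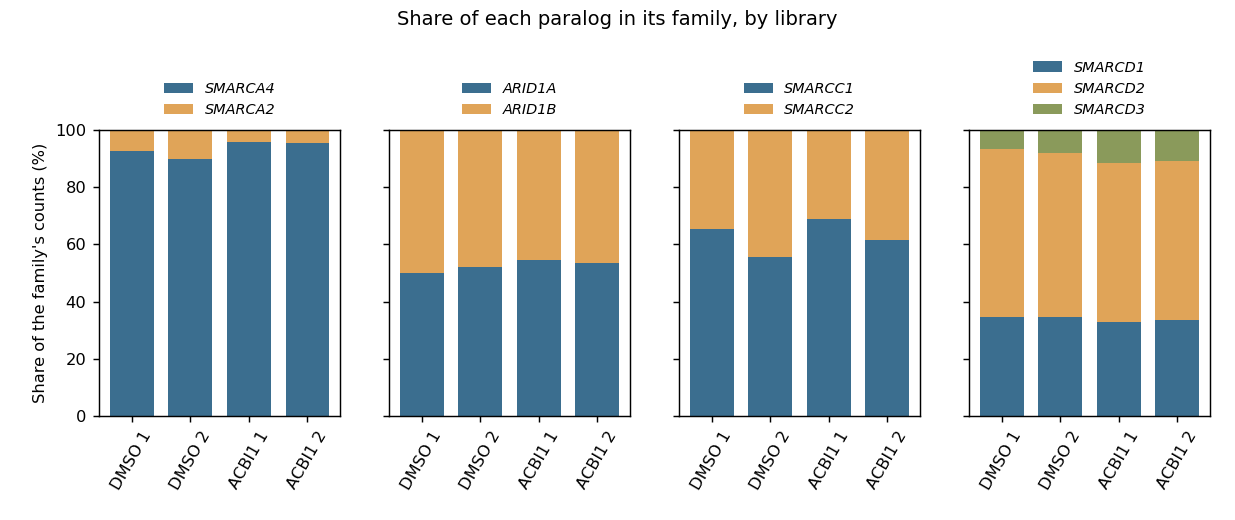
Share of each paralog in the summed counts of its family, in percent, for each of the 4 libraries, stacked to the whole. SMARCA2 narrows from 7.43% and 10.2% with DMSO to 4.05% and 4.41% with ACBI1, SMARCD3 widens from 6.68% and 7.92% to 11.7% and 10.8%, and the SMARCC1 share varies more between libraries of a group than between groups.

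The promoters of the ATPase genes are shown because their transcripts had changes of opposite sign. Each is the 250 bases before the first start that RefSeq lists (GRCh38.p14), with GC boxes in capitals. Against the gene spans given above, the SMARCA2 window lies inside the gene, and the SMARCA4 window crosses the start of its gene.
SMARCA4, chr19:10960780-10961029, plus strand: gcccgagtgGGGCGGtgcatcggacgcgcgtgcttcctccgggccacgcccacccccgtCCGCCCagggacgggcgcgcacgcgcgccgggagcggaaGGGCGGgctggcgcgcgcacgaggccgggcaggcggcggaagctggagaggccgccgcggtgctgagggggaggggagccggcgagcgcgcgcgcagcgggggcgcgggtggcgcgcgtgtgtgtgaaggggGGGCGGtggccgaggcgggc
SMARCA2, chr9:2015097-2015346, plus strand: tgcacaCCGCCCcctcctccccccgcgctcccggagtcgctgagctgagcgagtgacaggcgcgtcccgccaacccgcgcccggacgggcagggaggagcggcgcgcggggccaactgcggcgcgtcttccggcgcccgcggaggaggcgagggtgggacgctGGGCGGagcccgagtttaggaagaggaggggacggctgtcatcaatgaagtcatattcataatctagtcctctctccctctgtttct
Both windows are rich in G and C, with 82.4% in SMARCA4 and 68.8% in SMARCA2 against a median of 58.0% over 35116 promoter windows. The GC box (GGGCGG, both strands) was found 4 times in SMARCA4 and 2 times in SMARCA2, and 42.6% of all windows hold at least 1. The letters CCAAT (32.0% of all windows), TATAAA (10.7%), TGAGTCA or TGACTCA, which are each other's reverse complement (4.20%), and TTTCGCGC or TTTGGCGC (0.968%) were searched on both strands and are in neither window. RefSeq lists 2 starts for SMARCA4 and 4 for SMARCA2, and the gene counts sum over all of them.

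ARID1A (ENSG00000117713, chr1:26693236-26782110, plus strand), the DNA-binding subunit of canonical BAF that is often mutated in tumours, had 133 and 130 CPM with DMSO and 200 and 186 CPM with ACBI1. The DMSO libraries were almost level, and both ACBI1 libraries were above them. Its edgeR log2 change was 0.55 (SE 0.16, 95% interval 0.17 to 0.93) and narrowly missed the threshold (adjusted p 0.0599). ARID1A was called higher with upper-quartile scaling (adjusted p 0.0477) and with library size only (adjusted p 0.0363) in edgeR, and by DESeq2 (adjusted p 0.0255). In edgeR it was not called with DESeq2 size factors (adjusted p 0.0592), without the filter (0.0562) or with a minimum of 5 CPM (0.0521). Nor was it called by limma-voom (adjusted p 0.0549). With 1 library left out, its edgeR log2 change was 0.51 to 0.59.

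ARID1B (ENSG00000049618, chr6:156776020-157210779, plus strand), its alternative, had 132 and 120 CPM with DMSO and 167 and 162 CPM with ACBI1, again with no overlap between groups. The edgeR log2 change of 0.38 (SE 0.16) was not called (adjusted p 0.150, 95% interval -0.00 to 0.76). Both partners therefore had positive changes, and their balance moved less than that of the ATPases. ARID1A held 50.1% and 52.1% of the pair's counts with DMSO and 54.5% and 53.5% with ACBI1, a difference of 2.91 percentage points (exact permutation p 0.333, the smallest possible). The 2 transcripts were thus near parity in reads in every library, with 1.05 ± 0.06 ARID1A reads for each ARID1B read with DMSO and 1.17 ± 0.03 with ACBI1 (SD, n = 2). Exons of other genes cover 1.67% of the bases in ARID1B exons and 6.91% of its longest coding transcript.

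SMARCC1 (ENSG00000173473, chr3:47585272-47782106, minus strand) and SMARCC2 (ENSG00000139613, chr12:56162983-56189567, minus strand) encode the scaffold subunits BAF155 and BAF170. SMARCC1 had 222 and 145 CPM with DMSO and 291 and 216 CPM with ACBI1. The DMSO libraries differed 1.53-fold, the widest gap between DMSO replicates among the 9 genes, and the groups overlapped. The edgeR log2 change of 0.47 (SE 0.26) was not called (adjusted p 0.266, 95% interval -0.17 to 1.11). Its size varied with the library dropped: 0.81 and 0.19 for DMSO replicates 1 and 2, 0.24 and 0.66 for ACBI1 replicates 1 and 2.

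SMARCC2 was the steadier partner, at 118 and 116 CPM with DMSO and 132 and 135 CPM with ACBI1. Its groups did not overlap, yet the distance was small (edgeR log2 change 0.19, SE 0.15, adjusted p 0.432, 95% interval -0.18 to 0.55). MYL6, on the opposite strand, covers 6.01% of the bases in SMARCC2 exons and had 5214 and 6845 counts with DMSO and 2874 and 2835 with ACBI1, and its part in the SMARCC2 value was not tested. The share of SMARCC1 in the pair was 65.3% and 55.5% with DMSO and 68.9% and 61.6% with ACBI1. The difference of 4.84 percentage points is within the spread of the libraries, which is 6.95 points with DMSO and 5.16 with ACBI1 (SD, n = 2, exact permutation p 0.667). Without DMSO replicate 2 the difference was -0.07 points, so the sign of the difference rests on that library.

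The SMARCD genes encode BAF60A, BAF60B and BAF60C, which link the core to transcription factors. SMARCD3 (ENSG00000082014, chr7:151238764-151277896, minus strand), the form known from heart and muscle, was the rarest of the trio and the member called. It rose from 15.2 and 14.3 CPM with DMSO to 31.2 and 23.7 CPM with ACBI1, a 1.86-fold difference of means. The lower ACBI1 library was still well above both DMSO libraries. The edgeR log2 change was 0.89 (SE 0.20, adjusted p 0.0337, 95% interval 0.40 to 1.39) on 2269 counts with DMSO and 4347 with ACBI1. The call held with every scaling, filter and tool tried on 4 libraries, but it was lost in edgeR without DMSO replicate 2 (log2 change 0.85, adjusted p 0.0650), without ACBI1 replicate 1 (0.69, adjusted p 0.198) and without ACBI1 replicate 2 (1.07, adjusted p 0.0502). Genes on the opposite strand cover 13.8% of the bases in SMARCD3 exons and 4.86% of its longest coding transcript. Since the strand setting is not stated, their reads cannot be told apart there.

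SMARCD1 (ENSG00000066117, chr12:50084972-50100712, plus strand) had 79.1 and 62.5 CPM with DMSO and 88.2 and 73.6 CPM with ACBI1. SMARCD2 (ENSG00000108604, chr17:63832081-63843065, minus strand) had 134 and 104 CPM with DMSO and 148 and 122 CPM with ACBI1. In both genes the groups overlapped, and the edgeR log2 changes were 0.19 (SE 0.19, adjusted p 0.524, 95% interval -0.27 to 0.65) for SMARCD1 and 0.19 (SE 0.20, adjusted p 0.554, 95% interval -0.29 to 0.67) for SMARCD2.

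SMARCD1 differed 1.27-fold and 1.20-fold between the replicates of DMSO and ACBI1, and SMARCD2 differed 1.29-fold and 1.21-fold in the same direction. There were 0.591 and 0.602 SMARCD1 reads for each SMARCD2 read with DMSO, and 0.596 and 0.601 with ACBI1, so the ratio of these partners was nearly the same in the 4 libraries. SMARCD3 departed from both. Its share of the trio was 6.68% and 7.92% with DMSO and 11.7% and 10.8% with ACBI1, 3.93 percentage points higher (exact permutation p 0.333, the smallest possible), with 2.87 points between the nearest libraries of the groups. The SMARCD2 share differed by -2.52 points (58.1% ± 0.823 to 55.5% ± 0.249) and that of SMARCD1 by -1.41 points (34.6% ± 0.058 to 33.2% ± 0.358; SD, n = 2). The number of SMARCD2 reads for each SMARCD3 read was 8.78 and 7.26 with DMSO and 4.75 and 5.16 with ACBI1.

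Levels of different genes can be compared only per length, and the length chosen matters here. TPM, counts divided by length and scaled to the same total in each library, were computed with the longest coding transcript and with the union of all exons in GENCODE 29, which for ARID1B are 10813 and 44677 bases. Per coding transcript, the order with DMSO was SMARCD2 (114 ± 16.6 TPM), SMARCA4 (112 ± 17.8), SMARCC1 (74.6 ± 19.7), SMARCC2 (71.4 ± 1.70), SMARCD1 (50.3 ± 6.72), ARID1A (40.0 ± 0.703), ARID1B (30.4 ± 1.11), SMARCD3 (19.0 ± 0.217) and SMARCA2 (8.71 ± 0.717; SD, n = 2). The DMSO libraries of SMARCD2 and SMARCA4 overlapped, as did those of SMARCC1 and SMARCC2, while all other neighbours in this order did not. With ACBI1, SMARCA4 came first (191 ± 4.81 TPM), above SMARCD2 (135 ± 17.9), and SMARCA2 stayed last (6.90 ± 0.264). SMARCA2 was also the lowest of the 9 per union of exons (4.54 ± 0.391 TPM with DMSO), whereas SMARCA4 (56.4 ± 8.75) then came after SMARCD2 (113 ± 16.1) and SMARCC1 (85.3 ± 22.3), and ARID1B (10.1 ± 0.331) was level with SMARCD3 (10.1 ± 0.076).

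Summed by family per coding transcript, the SMARCD trio reached 183 ± 23.5 TPM with DMSO, the SMARCC pair 146 ± 18.0, the ATPases 121 ± 17.1 and the ARID1 pair 70.4 ± 0.411. With ACBI1 the sums were 233 ± 32.5, 193 ± 20.8, 197 ± 4.54 and 102 ± 3.68 TPM in the same order (SD, n = 2). Per union of exons, the ATPase sum was 60.9 ± 8.36 TPM with DMSO and 99.3 ± 3.92 with ACBI1, and the SMARCC sum 134 ± 20.9 and 182 ± 27.5 TPM (SD, n = 2). The ATPase sum was therefore below the SMARCC sum in both groups by that length, while per coding transcript, a length chosen after seeing the data, it was below it with DMSO and close to it with ACBI1.

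**Figure D3:**
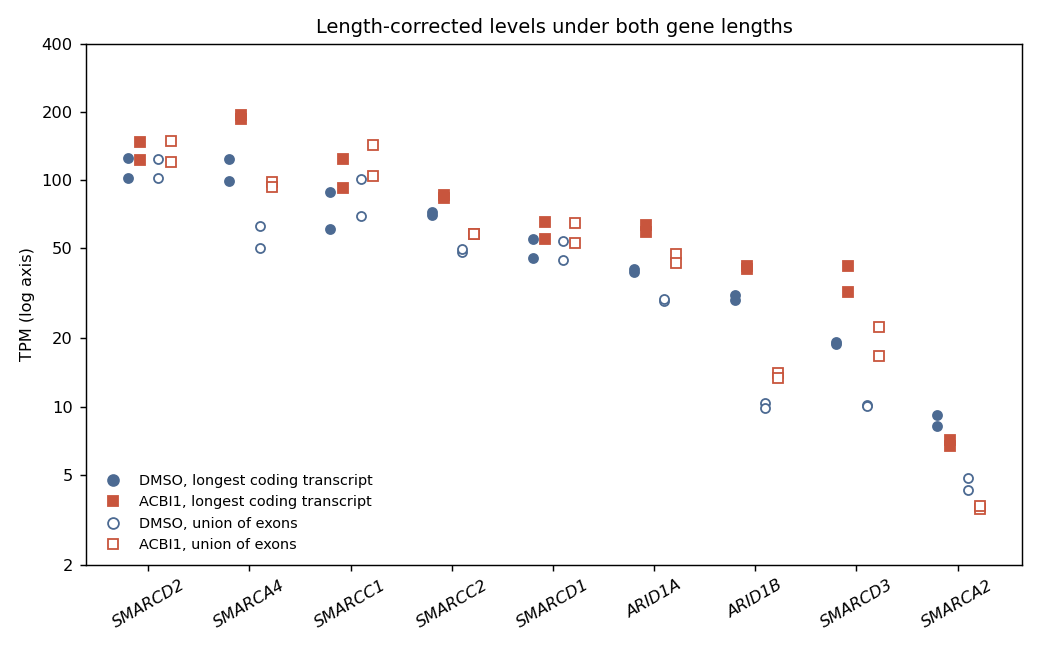
TPM of the 9 transcripts in each library on a log axis, with filled symbols for lengths of the longest coding transcript and open symbols for the union of exons (circles DMSO, squares ACBI1). SMARCA2 is lowest under both lengths, and ARID1B moves most between them, from 30.4 to 10.1 TPM in the DMSO means.

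The other subunits of the complexes give a frame for these changes. Of 20 further subunit genes 19 were tested, and edgeR called 5 higher and 1 lower, 31.6% against 17.4% of all genes tested (6.75% higher and 10.6% lower). The median log2 change was 0.12, against 0.01 over all genes. The neuronal-type paralog ACTL6B had no count in any library. A floor set at 3 counts in a library would be 0.0335 to 0.0458 CPM. Those called higher were BCL7C (log2 change 1.04, SE 0.19, adjusted p 0.0178), DPF1 (1.02, SE 0.23, adjusted p 0.0310), BICRAL (0.85, SE 0.17, adjusted p 0.0259), BCL7A (0.71, SE 0.17, adjusted p 0.0407) and ARID2 (0.61, SE 0.15, adjusted p 0.0448). BICRAL belongs to the non-canonical form of the complex and ARID2 to the PBAF form, in which ARID1 proteins are absent. BICRAL, for example, had 17.5 and 18.2 CPM with DMSO and 34.7 and 29.5 CPM with ACBI1, and its paralog BICRA had 34.9 and 41.6 against 28.4 and 32.4 CPM (log2 change -0.33, adjusted p 0.237).

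The DPF genes, a trio of paralogous PHD finger subunits, had log2 changes of both signs. DPF3 was called lower (log2 change -2.34, SE 0.49, adjusted p 0.0277), from 1.31 and 2.82 CPM with DMSO to 0.447 and 0.366 CPM with ACBI1. DPF2, the abundant member, had 56.9 and 61.1 CPM against 46.4 and 47.2 CPM (log2 change -0.33, adjusted p 0.171), while DPF1 rose from 6.08 and 5.59 to 12.2 and 11.5 CPM. The third degradation target, PBRM1, had a log2 change of 0.10 (95% interval -0.31 to 0.50). The core subunits SMARCB1 (log2 change -0.02) and SMARCE1 (-0.13) could not be judged well: other genes overlap 56.1% and 59.7% of their longest coding transcripts, and SMARCE1 was at only 0.945 to 1.26 CPM. The number of calls in this list was 2, 0 and 1 without DMSO replicate 2, ACBI1 replicate 1 and ACBI1 replicate 2, and 7 without DMSO replicate 1.

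**Figure D4:**
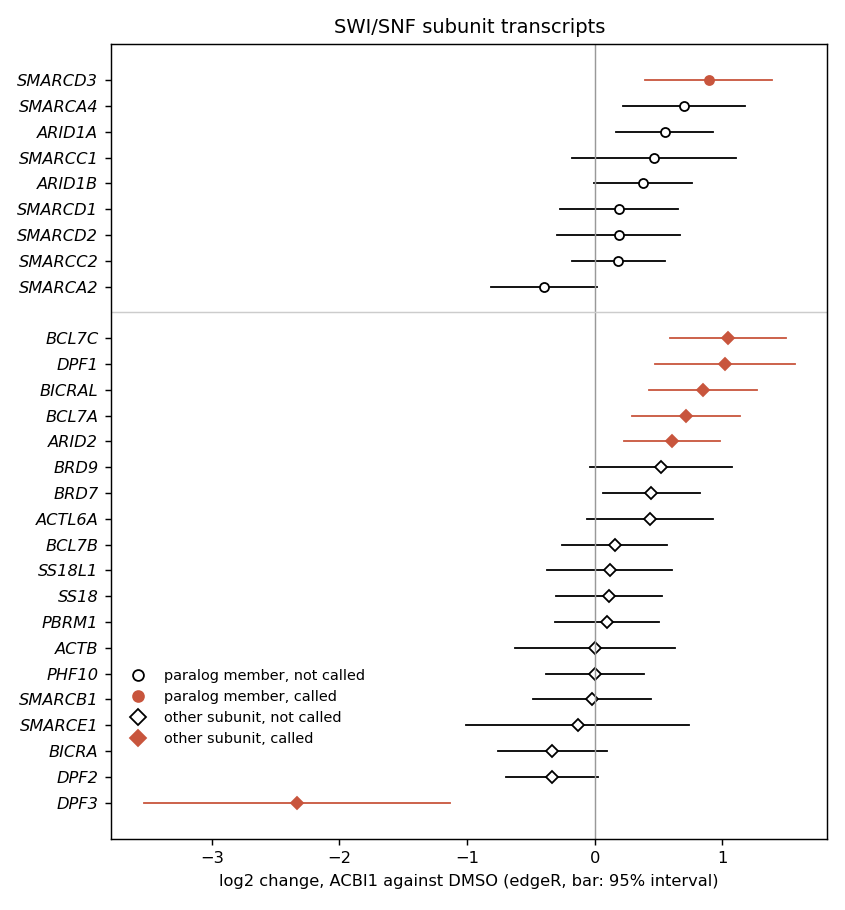
edgeR log2 change (ACBI1 against DMSO) with its 95% interval for the 9 paralogous members (top, circles) and 19 other subunits (bottom, diamonds), filled where the adjusted p is under 0.05. SMARCD3 is the member called, at 0.89, and SMARCA2 is the member with a negative change, at -0.40.

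Genes whose profile over the 4 libraries was nearest to that of SMARCA4 were SNRPD1, GGCT and RUVBL2, with root mean square differences of 0.014, 0.019 and 0.021 in centred log2 CPM. Nearest to SMARCA2 were DCTN2, FAM3A and SURF1 (0.016, 0.018 and 0.018). With 4 points such likeness is common: 317 of 11160 genes lay within 0.1 of SMARCA4 and 642 within 0.1 of SMARCA2.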

How the data were processed

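RNA-seq had been run on H1792 cells in 4 libraries, 2 kept in DMSO and 2 in ACBI1. Total RNA was column-purified and libraries were made with a DNA library kit (NEBNext Ultra II DNA), per the labels' protocols. The deposited values are raw counts per gene symbol, whole numbers with no normalization, per the file contents. TopHat2 2.1.1, HTSeq 0.11.0 and the build hg38 are named, with no role or order, per the submitters' processing notes. The annotation, the strand setting, the read length and the step from RNA to DNA are not given in the sources used here. The 5 lines of reads given to no gene held 13.9% to 15.4% of the reads listed and entered neither library sizes nor tests.

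Genes were filtered with filterByExpr (minimum count 10, minimum total 15), scaled by TMM and tested on treatment alone with edgeR 4.0.16 in R 4.3.3 (glmQLFit, glmQLFTest, two-sided), with Benjamini-Hochberg adjustment over all 19159 genes tested. Called means an adjusted p under 0.05. CPM are counts scaled to the TMM-adjusted library size, the SE is the log2 change divided by the square root of F, and intervals use the moderated degrees of freedom. A paralog's share is its percent of the summed counts of its pair or trio in 1 library, which no library scaling can alter. Shares carry exact Clopper-Pearson 95% intervals (SciPy 1.17.1) for counting error only, since reads that are PCR copies of a molecule are counted again. TPM used gene lengths from GENCODE 29 (GRCh38), matched by symbol for 57038 of 61228 features, which held 99.8% to 99.9% of gene counts. Promoter sequences came from RefSeq (GRCh38.p14) and transcript sequences from GENCODE 29. Of these steps, only the edgeR fit was tested on simulated data.

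The members, the lists and the tests were chosen with earlier results of these data known. All 9 members are named. Of the other SWI/SNF subunits, those called, the 3 highest and 3 lowest log2 changes and any with under 15 counts are named, and of the other remodeller ATPases those called. PBRM1, SMARCB1, SMARCE1, CHD4 and SRCAP were added after their values were seen. So were the markers KRT7, KRT8, KRT18, KRT19, EPCAM, COL1A1, COL1A2 and DCN. The genes nearest to SMARCA4 and SMARCA2 are the 3 with the smallest root mean square difference of centred log2(CPM + 0.5) over 4 libraries, among genes whose mean reached 5 CPM. Alternatives were DESeq2 1.42.0, limma-voom (limma 3.58.1), other scalings and filters, the replicate number as a block, other length bases, and each library left out.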

Additional observations from a re-analysis of the deposited data

How the results depend on the processing

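With 2 libraries a group, calls near the threshold moved easily. The number of the 9 members called was 1 (17.4% of all genes tested), and 1 with DESeq2 size factors (17.5%), 3 with upper-quartile scaling (18.3%), 3 with library size only (18.9%), 2 without a filter (16.8%), 2 with a minimum of 5 CPM (22.9%), 3 by DESeq2 (23.5%), 2 by limma-voom (17.3%), and 0 to 3 with 1 library left out (6.89% to 21.3%). SMARCA4 was called with a log2 change of 0.73 (upper quartile), 0.79 (library size only), 0.69 (no filter and minimum of 5 CPM), 0.70 (DESeq2) and 0.71 (limma-voom), and ARID1A with 0.58 (upper quartile), 0.64 (library size only) and 0.55 (DESeq2). With 1 library left out, where the lone library is assumed to vary like the other group, log2 changes ranged from 0.51 to 0.91 for SMARCA4, 0.19 to 0.81 for SMARCC1 and 0.69 to 1.07 for SMARCD3, and calls from 0 to 7 for the other subunits, 1 to 5 for the other ATPases and 1379 to 4292 over all genes. Without a filter 5518 of 32871 genes were called, against 3331 of 19159, a similar share.

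The replicate number as a block gave 6 members called (SMARCA4 0.71, SMARCA2 -0.40, ARID1A 0.55, ARID1B 0.38, SMARCC1 0.48 and SMARCD3, in log2), 11 other subunits and 7909 genes (41.3% of those tested). Same-numbered libraries deviated together (correlation 0.44 over 19159 genes), but no label says that a number marks a shared batch.

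The SMARCC1 share difference turned to -0.0736 points without DMSO replicate 2, and ran from -0.0736 to 9.75 points with 1 library left out. Per union of exons the SMARCD1 share difference was -0.93 points. Per coding transcript, a length chosen after seeing the data, it was -3.76 points for SMARCD2 and 5.35 for SMARCD3. The other share differences kept their sign and stayed within 1 SD of their value or in the ranges 3.20 to 5.92 (SMARCA4), 1.95 to 3.87 (ARID1A) and 3.30 to 4.55 points (SMARCD3). The counts for the other ATPases under each setting were also added after seeing the data.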

Other observations

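Other ATPases that remodel chromatin, which ACBI1 was not made to degrade, were set beside SMARCA4 and SMARCA2. All 15 were tested, and edgeR called 3 higher and 1 lower, 26.7% against 17.4% of all genes tested. The median log2 change was 0.28, against 0.01 over all genes, and 8 of the 15 values were positive, against 50.4% of all genes. These figures include CHD4 and SRCAP, which could not be judged well. Other genes overlap 87.6% and 86.2% of their longest coding transcripts. HELLS, which is needed for DNA methylation and is high in dividing cells, went from 15.6 and 18.0 CPM with DMSO to 50.8 and 53.7 CPM with ACBI1 (log2 change 1.64, SE 0.17, adjusted p 0.00425). INO80 rose from 87.6 and 76.0 to 130 and 144 CPM (log2 change 0.75, SE 0.16, adjusted p 0.0310) and CHD7 from 64.3 and 56.2 to 96.9 and 102 CPM (0.72, SE 0.16, adjusted p 0.0298). CHD6, of the same subfamily as CHD7, fell from 62.3 and 84.3 to 40.2 and 44.8 CPM (log2 change -0.78, SE 0.20, adjusted p 0.0433), and was not called when scaled by library size only. HELLS alone of the 15 was called without DMSO replicate 2, without ACBI1 replicate 1 or without ACBI1 replicate 2.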
